A study of Mus musculus with 24 samples.

Results

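Gm4450, Hsd3b4, Hsd3b2 and Hsd3b3 are 4 genes of the mouse Hsd3b cluster, out of 56941 genes counted in kidneys after myocardial infarction (MI). The genes were chosen by the difference of their counts between 5d post-MI and sham kidneys of these same animals, and by their place in the cluster, so every value of that comparison is given for them as a description. All 4 genes had enough counts to enter the fit over all genes. At 5d post-MI the mean level of Gm4450 was 1.32-fold and that of Hsd3b4 1.39-fold the sham mean, and at 28d post-MI they were 1.03-fold and 1.09-fold. For Hsd3b3 the ratios were 1.15 and 1.20, and for Hsd3b2 1.05 and 1.14. The counts of Hsd3b4 cannot be told apart from those of its copy Gm10681, and Gm4450 can share reads with both.

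The Hsd3b genes encode 3β-hydroxysteroid dehydrogenases, membrane-bound enzymes of steroid metabolism. Some members oxidize and isomerize precursors such as pregnenolone and dehydroepiandrosterone, a step without which progesterone, aldosterone, corticosterone and testosterone cannot be made. Other rodent members work mainly in the reverse direction as ketosteroid reductases that use NADPH and inactivate active androgens such as dihydrotestosterone. In mice, Hsd3b1 is the form of adrenal cortex and gonads, Hsd3b6 of Leydig cells and adrenal zona glomerulosa and Hsd3b5 of male liver, whereas Hsd3b2, Hsd3b3 and Hsd3b4 are known from kidney. Hsd3b7 lies outside the cluster and acts in bile acid synthesis.

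Young adult male wild-type mice of the B6 strain had the left anterior descending (LAD) artery of the heart tied off for good, a model of infarction without reperfusion, or had sham surgery with no tie. Whole-kidney RNA was read by Massive Analysis of cDNA Ends (MACE), which sequences the 3′ ends of mRNA and marks molecules with unique identifiers. The labels list 24 kidneys (8 sham, 9 of the 5d group and 7 of the 28d group). Of these, 8, 8 and 6 could be used, because a pair of count columns share 1 name and could not be assigned. Sham kidneys were taken 5d after surgery and served for both times, so in the comparison of 28d post-MI with sham the infarction cannot be told apart from age and time since surgery. Total counts per kidney were 2280618 to 3786275. Levels are CPM, the counts scaled by a normalized library size of each kidney and not by its total counts. In whole kidney, fewer cells of a type and less RNA per cell cannot be told apart.

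All genes of the cluster lie on the minus strand of chromosome 3 (GRCm38, GENCODE M21). From low to high coordinates they are Gm4450 (ENSMUSG00000090817, 98445675 to 98457126), Hsd3b4 (ENSMUSG00000095143, 98499071 to 98510514), Gm10681, Hsd3b5, Hsd3b2 (ENSMUSG00000063730, 98709255 to 98724543), Hsd3b3 (ENSMUSG00000062410, 98741523 to 98763127), Hsd3b6 and Hsd3b1. Each carries a coding sequence of 1122 bases with the stop, for 373 residues. Gm10681, which is no member of the set, is a copy of Hsd3b4 with an identical coding sequence. Gm4450 differed from both at 4 of 1122 coding bases, and 3 of these change the encoded residue. In contrast, Gm4450 and Hsd3b5 were 95.0% identical over the coding sequence, and Gm4450 was 80.9% identical to Hsd3b2 and 80.7% to Hsd3b3. Hsd3b2 and Hsd3b3 were 95.1% identical to each other.

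The last 60 coding bases show the relationship at the end of the coding sequence, and capitals mark bases that differ from Gm4450. In the cluster genes other than Hsd3b2, 356 to 385 transcript bases follow the stop. In Hsd3b2 2251 bases follow it, so its line lies far from the 3′ end that MACE reads. They were taken from the GENCODE M21 transcripts and read 5′ to 3′.
Gm4450: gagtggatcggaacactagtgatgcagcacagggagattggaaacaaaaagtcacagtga
Hsd3b5: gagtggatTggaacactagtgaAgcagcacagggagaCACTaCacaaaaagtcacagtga
Hsd3b2: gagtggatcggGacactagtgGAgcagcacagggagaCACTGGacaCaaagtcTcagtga
Hsd3b1: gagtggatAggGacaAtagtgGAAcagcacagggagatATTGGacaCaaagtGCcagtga
Hsd3b4 and Gm10681 carry the Gm4450 sequence in this stretch without a difference, and Hsd3b3 and Hsd3b6 that of Hsd3b2. Hsd3b5 differed at 7 of the 60 bases, Hsd3b2 at 11 and Hsd3b1 at 14.

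The 4 coding differences between Gm4450 and Hsd3b4 lie far from the 3′ end. Counted from 1 at the first coding base, with the base of Gm4450 before the position and that of Hsd3b4 after it, they are G160A, C173T, G643A and T660C. The last of them is 462 bases from the end of the coding sequence. Both stretches around G643A are shown because this is the difference nearest to the 3′ end that changes a residue, with the differing base in capitals.
Gm4450: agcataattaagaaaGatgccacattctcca
Hsd3b4: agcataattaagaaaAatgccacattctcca

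Reads from the ends of these transcripts can fit more than 1 gene. Over the last 500 bases of the transcript, all 426 windows of 75 bases of Hsd3b4 were also found in Gm10681, and 291 of the 426 windows of Gm4450 (68.3%) were found in both other copies. Of the windows of Hsd3b3, 21.8% were shared, with Hsd3b6 and Hsd3b2. The 16.7% of Hsd3b2 windows that were shared occurred in transcripts of genes outside the family. None of the windows of Hsd3b5 and Hsd3b1 was shared.

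**Figure D1:**
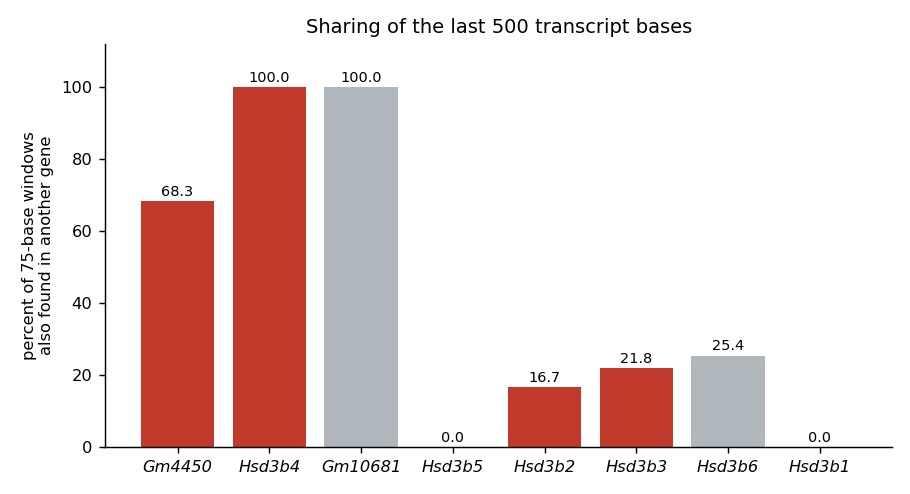
Bars give the percentage of 75-base windows in the last 500 bases of each transcript that also occur in another gene, with the 4 genes described here in red and other cluster genes in grey. Hsd3b4 and Gm10681 stand at 100%, Gm4450 at 68.3%, and Hsd3b5 and Hsd3b1 at 0%.

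In the upstream regions, Gm4450, Hsd3b4 and Gm10681 were close to each other and apart from the other family genes. In the RefSeq promoter windows (GRCm38.p6, 250 bases before to 50 after the start), Hsd3b4 differed from Gm4450 at 4 of 300 bases. Over the 271 bases that overlap, Gm10681 was identical to Hsd3b4. The promoter of Hsd3b2 was 47.7%, that of Hsd3b3 51.1% and that of Hsd3b5 48.3% identical to that of Gm4450. The promoters of Hsd3b2 and Hsd3b3 were 50.3% identical to each other, and those of Hsd3b5 and Hsd3b3 74.6%. The coding sequences grouped otherwise, with Hsd3b5 near Gm4450 and Hsd3b2 near Hsd3b3. A core of the site of HNF1, a transcription factor of proximal tubule and liver, was searched on both strands, as TTAAT and ATTAA with 1 open base between them, after the sequences had been seen. It was found in the windows of Gm4450, Hsd3b4 and Gm10681, in none of the other family promoters, and in 0.122% of all 32851 promoters. Of 2 other motifs searched on both strands, AGAACA, part of the glucocorticoid receptor site, was found in the windows of Gm4450, Hsd3b4, Gm10681, Hsd3b2 and Hsd3b6 and in 18.97% of all promoters. TATAAA, the TATA box, was found in this family only in the window of the second annotated start of Hsd3b4, after that start, and in 13.6% of all promoters. Such a match is a description of the sequence and not of binding. The 120 bases that precede the start are shown for Gm4450 (chr3:98457127-98457246), Hsd3b2 (chr3:98724544-98724663) and Hsd3b3 (chr3:98763129-98763248), all on the minus strand, together with the matching stretch of Gm10681 (chr3:98564039-98564158). Capitals mark the HNF1 core.
Gm4450: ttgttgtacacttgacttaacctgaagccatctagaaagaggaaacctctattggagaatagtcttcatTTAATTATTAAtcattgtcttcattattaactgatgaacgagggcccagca
Gm10681: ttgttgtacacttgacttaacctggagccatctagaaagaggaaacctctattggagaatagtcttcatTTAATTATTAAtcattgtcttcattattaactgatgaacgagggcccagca
Hsd3b2: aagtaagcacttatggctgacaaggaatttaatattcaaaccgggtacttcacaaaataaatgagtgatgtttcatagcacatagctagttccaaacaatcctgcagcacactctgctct
Hsd3b3: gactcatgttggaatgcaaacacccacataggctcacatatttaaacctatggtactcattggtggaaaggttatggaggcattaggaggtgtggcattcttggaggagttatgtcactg

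Counts of the near-identical copies were split in similar proportions in every kidney. Hsd3b4 took 48.3% to 52.4% of the counts of Hsd3b4 and Gm10681, with a median of 49.99%, and in 22 of 22 kidneys the 95% Wilson interval of this share held 50%. These intervals cover counting error only. Gm4450 took 24.5% to 31.0% of the counts of the 3 copies, and its median share in the sham, 5d and 28d groups was 27.7%, 27.3% and 27.4%. With identical 3′ ends, Hsd3b4 and Gm10681 cannot be told apart in these counts, and Gm4450 can share part of its reads with them. How reads that fit several copies were assigned is not given in the sources used here. The 3 copies together held 76.9% to 88.6% of the summed counts of the copies, Hsd3b5, Hsd3b2, Hsd3b3 and Hsd3b6. Hsd3b1, which also lies in the cluster, was left out of this sum. Between Hsd3b2 and Hsd3b3 the split moved from kidney to kidney, with 35.4% to 64.8% of their summed counts on Hsd3b2, and the interval held 50% in 12 of 22 kidneys.

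**Figure D2:**
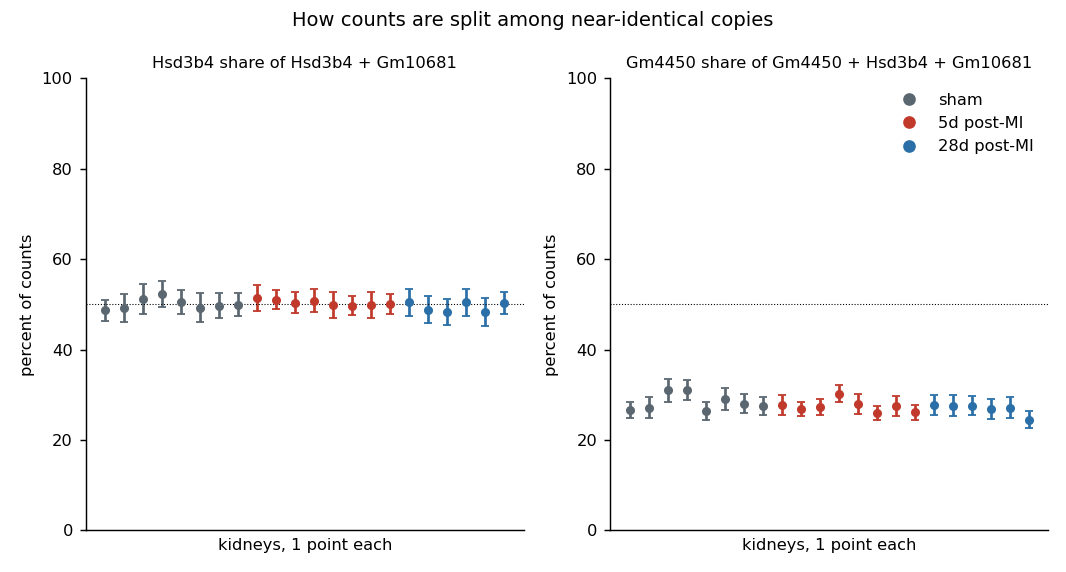
Points give, for each of the 22 kidneys, the share of counts in percent with its 95% Wilson interval, for Hsd3b4 within Hsd3b4 and Gm10681 on the left and for Gm4450 within the 3 copies on the right. The dotted line is at 50%. The left shares lie between 48.3% and 52.4% and the right ones between 24.5% and 31.0%, with no separation of sham, 5d and 28d post-MI kidneys.

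Gm4450 was higher at 5d post-MI in most kidneys. The level of Gm4450 in sham kidneys had a lowest value of 132, a median of 152 and a highest value of 187 CPM. At 5d post-MI the same values were 155, 204 and 244 CPM. Of the 8 kidneys at 5d post-MI, 7 lay above every sham kidney, and the other one, replicate 1, lay within the sham range. The means were 157 ± 17.9 CPM in sham kidneys (SD, n = 8) and 207 ± 29.5 CPM at 5d post-MI (SD, n = 8), and the fitted log2 fold change was 0.40 with a standard error (SE) of 0.079.

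Hsd3b4, which acts mainly as a ketosteroid reductase, differed in the same direction as Gm4450. Their 3′ ends are partly identical, so reads could be shared between them, which was not measured. The counts of Hsd3b4 also cannot be told apart from those of Gm10681. For Hsd3b4, sham kidneys ran from 167 over a median of 195 to 252 CPM, and those at 5d post-MI from 208 over 276 to 329.8 CPM. The groups overlapped, since 5 of 8 kidneys at 5d post-MI were above all sham kidneys. The mean was 199.7 ± 30.5 CPM in sham kidneys and 277 ± 48.7 CPM at 5d post-MI (SD, n = 8 each), and the fit gave a log2 fold change of 0.48 (SE 0.109). For its copy Gm10681, the corresponding log2 fold change was 0.45 with a standard error of 0.119. The sum of the 3 copies had medians of 545 CPM in sham kidneys and 757 CPM at 5d post-MI, and all 8 kidneys at 5d post-MI lay above the sham mean of 556 CPM.

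Hsd3b3, like Hsd3b2 a renal and hepatic form, differed less. In sham kidneys it was between 36.9 and 76.0 CPM with a median of 53.8 CPM, and at 5d post-MI between 51.7 and 71.3 CPM with a median of 64.5 CPM. No kidney at 5d post-MI exceeded the highest sham kidney. The means were 55.0 ± 11.95 CPM and 63.5 ± 7.71 CPM (SD, n = 8 each), with a log2 fold change of 0.20 and a standard error of 0.112.

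Hsd3b2 showed the least difference of the set. Its lowest, median and highest levels were 31.4, 50.5 and 68.1 CPM in sham kidneys, and 37.5, 53.5 and 74.0 CPM at 5d post-MI. The groups overlapped over nearly their full ranges. The means were 50.4 ± 13.1 CPM and 53.0 ± 12.5 CPM (SD, n = 8 each), and the log2 fold change of 0.06 was smaller than its standard error of 0.163.

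By edgeR's quasi-likelihood test with Benjamini-Hochberg adjustment over 12780 genes, 9 genes (0.0704%) passed 0.05 in this comparison, and 1 of the 4 members, Gm4450, was among them. DESeq2 called 36 genes (0.241% of those it gave an adjusted p) and limma's voom 22 (0.172%), and Gm4450 and Hsd3b4 were among them in each. By edgeR, Gm4450 passed in 4 of the 22 fits that left out 1 kidney, which were those without sham replicate 1 or without replicate 1, 5 or 8 at 5d post-MI. Of the 9 other alternatives, it passed with DESeq2, with voom, with DESeq2 size factors in edgeR and without the filter on low counts. It did not pass with scaling by library size alone, with only the groups compared, with a replicate block, without the kidneys that held adrenal markers or with the near-identical copies summed. The members were chosen with this comparison known, so nothing is read from these counts.

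**Figure D3:**
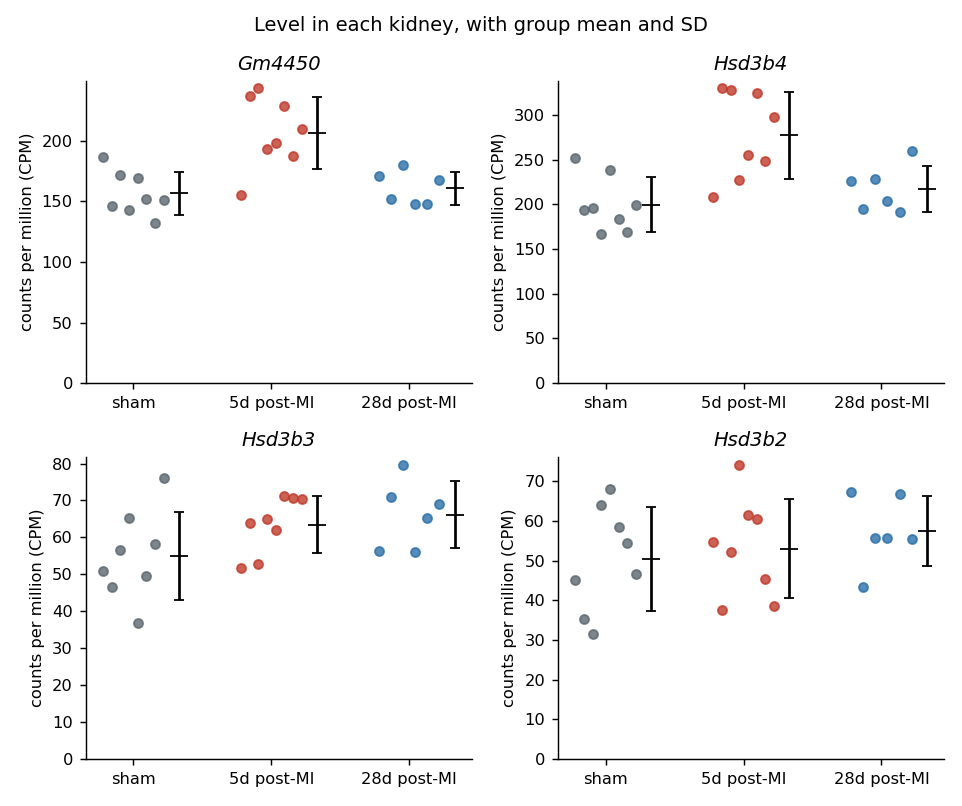
Each point is the level of 1 kidney in CPM for Gm4450, Hsd3b4, Hsd3b3 and Hsd3b2 in the sham, 5d post-MI and 28d post-MI groups. Black marks give the group mean and SD. Gm4450 and Hsd3b4 have group means of 207 and 277 CPM at 5d post-MI against 157 and 199.7 CPM in sham kidneys, and the groups of Hsd3b3 and Hsd3b2 overlap broadly.

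The kidneys at 28d post-MI were used to ask whether the levels differed at a later time. Of the 12780 genes tested, 3 (0.0235%) passed in the comparison of 28d post-MI with sham, and 0 of the 4 members were among them. Voom called 11 genes (0.0861%), again with 0 of the members. DESeq2 called 30 genes (1.44% of the 2090 to which it gave an adjusted p here), and it gave an adjusted p to 2 of the members, Gm4450 and Hsd3b4, neither of which passed. At an unadjusted p under 0.05 in edgeR, 1 of the 4 members, Hsd3b3, passed, beside 1109 of all genes. This comparison uses the same sham kidneys as that at 5d.

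At 28d post-MI, Gm4450 had a lowest level of 148, a median of 159.8 and a highest level of 179.7 CPM, all within the sham range. Its mean of 161 ± 13.6 CPM (SD, n = 6) gave a log2 fold change of 0.04 against sham (SE 0.087, edgeR, adjusted p = 0.948). Hsd3b4 lay between 192 and 259.5 CPM with a median of 215 CPM, and its mean was 217 ± 25.7 CPM (SD, n = 6). The log2 fold change of Hsd3b4 against sham was 0.12 (SE 0.119, edgeR, adjusted p = 0.847).

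Hsd3b3 at 28d post-MI ranged from 56.1 over a median of 67.1 to 79.7 CPM, and 1 of 6 kidneys exceeded the highest sham kidney. Its mean was 66.2 ± 9.09 CPM (SD, n = 6), with a log2 fold change of 0.26 (SE 0.121, edgeR, adjusted p = 0.559). Hsd3b2 ranged from 43.3 over 55.7 to 67.2 CPM, within the sham range, with a mean of 57.4 ± 8.84 CPM (SD, n = 6). Its log2 fold change was 0.17 (SE 0.176, edgeR, adjusted p = 0.855).

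The direct comparison of 28d with 5d post-MI tested over all genes whether a level differed between the times. It shares the 5d kidneys with the comparison that was known. The members were chosen with that comparison known, so a fall of a member from 5d to 28d can come from the choice alone. For the 4 members the p-values are therefore given as a description, and nothing is read from them. Over all genes 53 (0.415%) passed by edgeR and 63 (0.493%) by voom, with 0 of the 4 members in each. DESeq2 called 91 genes (0.565% of those it gave an adjusted p), of which 1 was a member, Gm4450. At an unadjusted p under 0.05 in edgeR, 2 of the 4 passed, Gm4450 and Hsd3b4, beside 1156 of all genes. Gm4450 fell short of the threshold with a log2 fold change of −0.36 (SE 0.087, edgeR, adjusted p = 0.0596). Of the 6 kidneys at 28d post-MI, 3 were below every kidney at 5d and all were below the mean at 5d. Hsd3b4 had a log2 fold change of −0.35 (SE 0.119, edgeR, adjusted p = 0.306), and Gm10681 of −0.30 (SE 0.129, edgeR, adjusted p = 0.492). Hsd3b3 and Hsd3b2 gave 0.06 and 0.11 (edgeR, adjusted p = 0.939 and 0.926). The Gm4450 difference passed 0.05 when DESeq2 was used (log2 fold change −0.36, adjusted p = 0.0183), without the filter on low counts (adjusted p = 5.8e-06), and when replicate 1 at 5d post-MI (adjusted p = 0.00196), sham replicate 1 (0.0285) or sham replicate 7 (0.0401) was left out. Over the tools, scalings, filters, blocks and left-out kidneys tried, its adjusted p was between 5.8e-06 and 0.153, and with the 3 copies summed as 1 gene, an alternative chosen after seeing the data, it was 0.304.

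**Figure D4:**
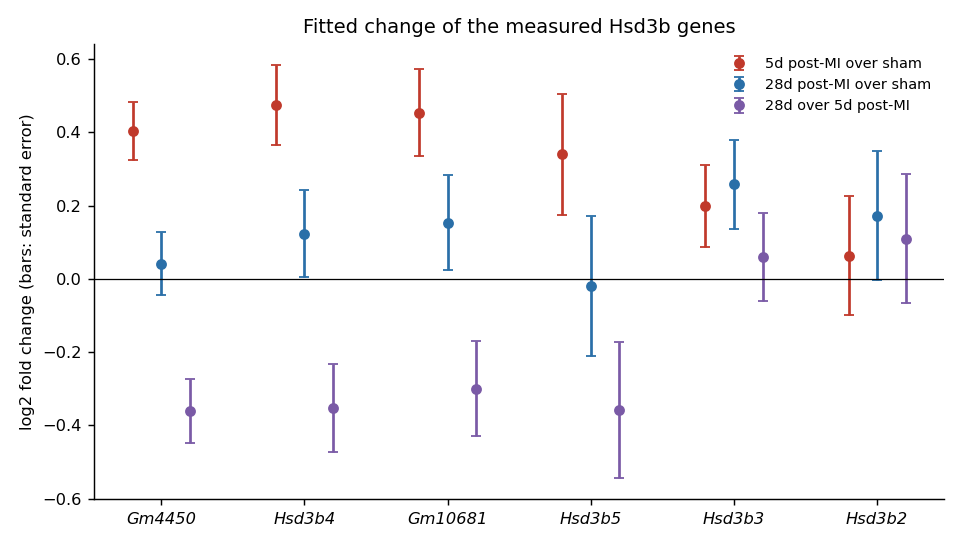
Points give the log2 fold change of the edgeR fit and bars its standard error for the 6 family genes past the count filter, in red for 5d post-MI over sham, blue for 28d post-MI over sham and purple for 28d over 5d post-MI. Gm4450, Hsd3b4, Gm10681 and Hsd3b5 have positive values of 0.34 to 0.48 at 5d post-MI and negative values of −0.30 to −0.36 between the times, whereas those of Hsd3b3 and Hsd3b2 are positive in all 3 comparisons.

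The order of group means thus ran from sham over 28d to 5d post-MI for Gm4450 and Hsd3b4, with sham and 28d post-MI apart by less than their SDs. For Hsd3b3 and Hsd3b2 it ran from sham over 5d to 28d post-MI, and each step was smaller than the larger SD of the neighbouring groups.

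Hsd3b5, the male liver form, was the only family gene past the count filter that shared no window at its 3′ end, and it was scarce. It had 14 to 52 counts per kidney, with means of 8.38 ± 1.36 CPM in sham kidneys (SD, n = 8), 10.6 ± 2.99 CPM at 5d (SD, n = 8) and 8.29 ± 2.44 CPM at 28d post-MI (SD, n = 6). Kidneys of all groups overlapped. The log2 fold change at 5d post-MI was 0.34 (SE 0.166, edgeR, adjusted p = 0.63), that at 28d against sham −0.02 (adjusted p = 0.991) and that at 28d against 5d −0.36 (adjusted p = 0.589). Hsd3b6 had 0 to 6 counts in any kidney, too few for a comparison. Hsd3b7 had 0 counts in all 22 kidneys. All 426 windows at the end of its transcript also occur in Gm49388, an overlapping gene that had 0 counts as well, so these zeros set no limit on its expression. How reads that fit both genes were assigned is not given in the sources used here.

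Hsd3b1, the adrenal and gonadal form, was at 0 in 17 of 22 kidneys and high in a few. It had 644 counts (242 CPM) in sham replicate 2, 460 counts (174 CPM) in sham replicate 6 and 62 counts (18.2 CPM) in replicate 5 at 5d post-MI. The other kidneys with a count held 1 and 2 counts. The same 3 kidneys had the highest sums of 9 adrenal cortex markers, 823, 668 and 89.9 CPM, against 9.15 to 26.6 CPM in the other 19. The most abundant of these markers was Star, which delivers cholesterol to mitochondria, and Cyp11b2 was at 0 in all kidneys. Gm4450 in these kidneys was at 146, 152 and 193 CPM, inside the range of its group each time. Without them, the mean of Gm4450 was 159.1 ± 20.3 CPM in sham kidneys (SD, n = 6) and 209 ± 31.3 CPM at 5d post-MI (SD, n = 7), and the log2 fold change was 0.39.

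**Figure D5:**
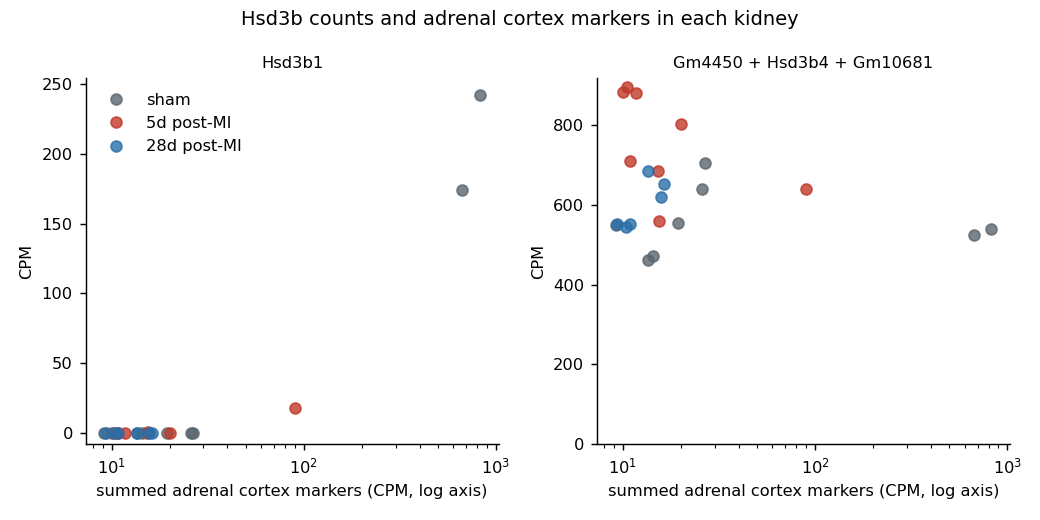
Points are the 22 kidneys, with the summed CPM of 9 adrenal cortex markers on a logarithmic horizontal axis and, on the vertical axis, the CPM of Hsd3b1 on the left and of the 3 near-identical copies on the right. Hsd3b1 is at 242, 174 and 18.2 CPM in the 3 kidneys with marker sums of 823, 668 and 89.9 CPM, where the copies lie between 525 and 640.5 CPM.

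No gene beside the cluster passed the test. Of 37 genes annotated within 500 kb of its ends, 6 had enough counts to be tested. None of the 6 passed by edgeR, DESeq2 or voom in any of the 3 comparisons. DESeq2 gave only 1 of the 6 an adjusted p at 28d against sham. In edgeR, 1, 2 and 2 had an unadjusted p under 0.05, beside 1009, 1109 and 1156 of all 12780 genes. Against sham, the median log2 fold change of the 6 was 0.11 at 5d and −0.06 at 28d, beside 0.00018 and −0.0012 over all genes. Hao2, a peroxisomal hydroxyacid oxidase, had medians of 76.5, 75.6 and 67.5 CPM. Zfp697, a zinc finger gene whose annotation on the plus strand spans Gm4450 to Hsd3b2, had a log2 fold change of 0.36 at 28d post-MI (SE 0.109, edgeR, adjusted p = 0.262) and of 0.10 at 5d post-MI (edgeR, adjusted p = 0.878). Gm43190, an intronic transcript on the strand of Gm4450, had 1 to 20 counts per kidney, with medians of 2.08, 3.44 and 1.03 CPM, and its counts cannot be told apart from unspliced Gm4450 RNA.

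The wider steroid pathway was described by 31 genes that activate, inactivate or conjugate steroids, of which 25 were tested. In each of the 3 comparisons 0 of them passed by edgeR or voom. In edgeR, 4 each time had an unadjusted p under 0.05, beside 1009, 1109 and 1156 of all 12780 genes. The list's median log2 fold change was 0.01 at 5d post-MI, 0.09 at 28d post-MI and 0.11 between the times. All tested genes had 0.00018, −0.0012 and −0.0046. The lowest p-values at 5d post-MI were those of Sult1d1, a cytosolic sulfotransferase, with a log2 fold change of 0.32 (adjusted p = 0.119 by edgeR and 0.0147 by DESeq2, the only gene of this list that DESeq2 called), and of Nsdhl, a sterol dehydrogenase of cholesterol synthesis, with −0.27 (edgeR, adjusted p = 0.451). At 28d against sham they were those of Ugt2b38, a glucuronosyltransferase, with 0.32 (edgeR, adjusted p = 0.507), and Akr1c14, a hydroxysteroid dehydrogenase that acts on dihydrotestosterone, with 0.31 (edgeR, adjusted p = 0.509). Between the times, Hsd11b1, which regenerates corticosterone, had 0.56 (edgeR, adjusted p = 0.2) and Sult1d1 −0.23 (edgeR, adjusted p = 0.297). The summed level of the list was 3193 to 4161 CPM over all kidneys, with Akr1c21 the most abundant.

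Of 16 genes known to respond to androgen in mouse kidney, all 16 were tested and 0 passed in each comparison by edgeR or voom. In edgeR, 1, 5 and 8 of the 16 had an unadjusted p under 0.05, beside 1009, 1109 and 1156 of all 12780 genes. DESeq2, which gave 11 of the 16 an adjusted p at 28d against sham, called 1, Mep1a in that comparison. The list's median log2 fold change was −0.05 at 5d post-MI, 0.23 at 28d against sham and 0.27 at 28d against 5d post-MI. All tested genes had medians of 0.00018, −0.0012 and −0.0046. The prolactin receptor gene Prlr had a log2 fold change of 0.61 at 5d post-MI (edgeR, adjusted p = 0.755). At 28d against sham, Mep1a, a brush border protease, had 0.21 (adjusted p = 0.107 by edgeR and 0.0198 by DESeq2) and Kap, an abundant androgen-regulated protein of the proximal tubule, 0.28 (edgeR, adjusted p = 0.479). Between the times, Cyp4a12a, a fatty acid hydroxylase, had 1.30 (edgeR, adjusted p = 0.2) and Cyp4b1 0.42 (edgeR, adjusted p = 0.253). The direction of the list's median between the times was opposite to that of Gm4450.

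Among the marker lists given here, genes passed only in that of haemoglobin. The summed level of 9 proximal tubule markers, led by Slc34a1, was 7115 to 9242 CPM in sham kidneys, 6149.7 to 8011 CPM at 5d and 7646 to 9299 CPM at 28d post-MI. Of these, 0 of 8 tested genes passed in any comparison by edgeR, DESeq2 (7 of the 8 with an adjusted p at 28d against sham) or voom. In edgeR, 2, 2 and 6 had an unadjusted p under 0.05, beside 1009, 1109 and 1156 of all 12780 genes. The sum of 6 adipocyte markers, led by Cfd, was 134 to 975 CPM in sham kidneys, 73.6 to 616 CPM at 5d and 154 to 423 CPM at 28d post-MI. Of the 5 adipocyte genes tested, 0 passed in any comparison by edgeR, DESeq2 (1 of the 5 with an adjusted p at 28d against sham) or voom. In edgeR, 0, 3 and 0 of them had an unadjusted p under 0.05. In contrast, the sum of 4 haemoglobin genes, of which all 4 passed at 5d post-MI and between the times, was 2200.4 to 4123 CPM in sham kidneys, 4967 to 19088 CPM at 5d and 1795 to 5122 CPM at 28d post-MI. Haemoglobin RNA was high in the same group as Gm4450, and its part in the Gm4450 values was not tested. Markers of Leydig cells were absent or nearly so, with Insl3 at 0 in all kidneys and Insl3 and Cyp17a1 together at most 0.813 CPM.

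Across the 22 kidneys, after each group's mean log2 CPM had been taken out, the genes most like Gm4450 were its copies Hsd3b4 (Pearson r = 0.89) and Gm10681 (r = 0.87). Their 3′ ends are partly identical to that of Gm4450, so reads could be shared among them, which was not measured. The next were Ppp2r3a (0.77), Zfp503 (0.74), Gm6023 (0.74), ENSMUSG00000121069 (0.73), Mrps6 (0.72), Krt7 (0.72), Pfn2 (0.71) and the water channel Aqp1 (0.70), the highest of 12780 genes in the same libraries. Gm4450 had r = −0.02 with Hsd3b3, −0.20 with Hsd3b2 and 0.31 with Hsd3b5. For Hsd3b4 the most like were Gm10681 (0.97), Gm4450 (0.89) and Mrps6 (0.84). For Hsd3b3 they were Hlf (0.90), Col27a1 (0.88) and Igfbp4 (0.87), and for Hsd3b2 Plpp6 (0.72), Gm7432 (0.72) and Il34 (0.71). These values describe the same 22 libraries and carry no test.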

How the data were processed

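Kidney RNA of 22 mice was measured by MACE. The authors deposited whole-number counts of 56941 genes per kidney without normalization. They state that reads were trimmed with cutadapt, mapped to mm10 and counted with HTSeq, whereas the submitters' processing notes name Bowtie2 and mm39. The annotation, the strand setting and the treatment of reads that fit several genes are not given in the sources used here. Of the table's columns, 26 were not used, namely 24 of tpm values and 2 of counts whose name is shared by kidneys of different groups. Coordinates and transcripts are those of GENCODE M21 (GRCm38), which holds 52000 of the identifiers.

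Counts were filtered by filterByExpr (minimum 10, leaving 12780 of 30116 genes with a count), normalized by TMM and fitted by edgeR 4.0.16 (R 4.3.3) in 1 quasi-likelihood model of the 3 groups. F tests were two-sided, with Benjamini-Hochberg adjustment and a threshold of 0.05. Alternatives used DESeq2 1.42.0, limma 3.58.1 and other filters, scalings and kidneys. On simulated counts of 12652 genes for 5d post-MI against sham, 189 of 200 genes changed by a log2 of 1 were called, and 10 unchanged genes. The largest fitted change of a member there was 0.48, for Hsd3b4. How often changes of that size are called was not simulated. CPM were counts over each kidney's TMM-normalized library size, not over its total counts. Likeness of genes was Pearson's r of log2 CPM (prior count 2). Within groups, 71 pairs of kidneys differed by more than sampling noise (chi-squared per degree of freedom 1.69 to 7.21). Python 3.11.15 with pandas 2.3.3, scipy 1.17.1, Biopython 1.88 and matplotlib 3.10.9 was used.

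The members, the lists and the tests were chosen with earlier results of these data known. The text names the 4 members, each family gene, list genes that were called or otherwise the 2 with the lowest p-value per comparison for the steroid, androgen-response and neighbouring genes (of the latter a selection), and the genes most like each member. Some genes that this rule names are not reported here. Further lists of cell type markers are given only as far as they bear on the members. The labels number the samples within each group and name no animal. For each group, the paper gives as many sequenced mice as the labels list kidneys. In the earlier post-MI group, the sequenced mice were a random selection of those operated on.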

Additional observations from a re-analysis of the deposited data

Results flagged for a closer look

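In 35 groups of 6 or 8 kidneys, each the level of 1 gene in 1 group, the highest or lowest kidney was compared with the others by Dixon's gap over the range. Chance alone marks about 1 in 20 such groups. The level of Hsd3b1 in replicate 5 at 5d post-MI was 18.2 CPM, apart from the other kidneys of its group by 0.962 of the range, and this kidney also had the highest adrenal cortex marker sum of its group, 89.9 CPM. Hao2 was at 101 CPM in sham replicate 1, with a gap of 0.692 of the range, and at 228 CPM in replicate 2 at 5d post-MI, with a gap of 0.592. No kidney stood apart in this way for Gm4450, Hsd3b4, Hsd3b3 or Hsd3b2.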

How the results depend on the processing

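The log2 fold change of Gm4450 at 5d post-MI against sham was 0.37 to 0.45 when each of the 22 kidneys was left out in turn. The corresponding ranges were 0.44 to 0.53 for Hsd3b4, 0.13 to 0.28 for Hsd3b3 and −0.03 to 0.13 for Hsd3b2. At 28d against sham they were 0.01 to 0.08, 0.06 to 0.18, 0.19 to 0.34 and 0.11 to 0.24 in the same order, with no adjusted p under 0.05. At 28d against 5d post-MI, Gm4450 ranged from −0.41 to −0.32. It passed 0.05 by DESeq2 (−0.36) and without the filter on low counts (−0.37), which tests more genes. The cause was not tested.

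Counts of called genes depended on the setting. Leaving out each kidney gave 1 to 38 genes at 5d against sham, 0 to 29 at 28d against sham and 41 to 84 between the times. In this order, DESeq2 called 36, 30 and 91 genes and edgeR without the filter 80, 94 and 160. A fit of only the 2 groups compared called 2, 31 and 26. At 5d and at 28d against sham, limma's voom called 22 and 11 genes, library size alone as the scaling 5 and 1, and the fit without the 3 kidneys with adrenal markers over 50 CPM (Star, Cyp11a1, Cyp11b1 and Cyp21a1 summed) 2 and 1.

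Replicate numbers of the labels do not pair the kidneys. Deviations of 18 same-numbered pairs from their group means correlated by −0.127 to 0.0899. With the replicate number as a block, 2, 24 and 80 genes were called, and the log2 fold change of Gm4450 was 0.38 at 5d and 0.03 at 28d against sham and −0.35 between the times (adjusted p = 0.153). Summing the 3 copies, chosen after seeing the data, gave 0.45, 0.11 and −0.34. With Spearman's rho, and without the 3 kidneys, 8 of the 10 genes most like Gm4450 were among the first 10 again. Genes at 0 to 6 counts, as Hsd3b6, cannot be compared at this depth.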
